A study of Mus musculus with 15 samples.

Results

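The genes examined here encode the proteins of the cytoplasmic ribosome. They were chosen by name, as protein-coding genes whose symbol starts with Rpl, Rps or Rplp followed by a digit, leaving out symbols that contain -ps and the S6 kinase genes (Rps6k). The rule found 85 genes among 50051 annotated features, 52 with a large-subunit symbol and 33 with a small-subunit symbol. It left out 10 S6 kinase genes and 6 protein-coding genes with -ps in the symbol, and it does not reach ribosomal genes with other symbols, of which Rpsa, Fau and Rack1 are given separately. One gene that the rule takes in, Rps19bp1, encodes a protein that binds ribosomal protein S19 and is not itself a ribosomal protein.

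RNA came from testes of mice labelled B6D2F1 at postnatal day 28. The groups were 3 RNA-seq libraries from homozygous mutants of a pachytene piRNA locus on chromosome 18 (Chr18-/-, KO), 3 from heterozygotes (Chr18+/-, HET, labelled as a control) and 3 from wild-type mice (Chr18+/+, WT, labelled as a control). Small RNA libraries covered 3 KO and 3 HET testes after periodate oxidation and β-elimination, a treatment that removes RNAs without a protected 3′ end and so favours piRNAs. All groups share strain label, age and tissue. The testis is a mixture of germ cells at many stages and somatic cells, so in these bulk samples fewer cells of a type and less RNA per cell cannot be told apart. The labels do not say whether each library came from a separate animal, and p-values therefore measure only the spread between these libraries, which may be technical.

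A ribosome joins a large and a small subunit, each built from ribosomal RNA and many different proteins that are needed in near-equal numbers. In mammals, most ribosomal protein mRNAs begin with a C followed by a run of pyrimidines, the 5′ terminal oligopyrimidine (TOP) tract, through which the mTOR pathway and the protein Larp1 control their translation together. Male germ cells of the mouse differ from other cells because the X chromosome is silenced in meiosis: autosomal copies such as Rpl10l and Rpl39l are made in spermatocytes and spermatids, where their X-linked parents Rpl10 and Rpl39 are shut down.

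Part of the annotated start sites of these genes hold a pyrimidine run of this kind. Among the 65 genes with an entry in the RefSeq promoter table (GRCm38.p6), 30 (46.2%) had a C within 5 bases of an annotated start followed without a break by further C or T, in all at least 5 pyrimidines on the transcribed strand. Of 27018 genes in the same table, 5715 (21.2%) had such a run at a start site, counted in the same way. The windows below hold 15 bases before and 15 bases from the annotated start for genes whose level is described further on. Capitals mark the pyrimidine run that was found. They are set by how their levels in the mutants compare with WT: Rplp0 to Rps27rt were lower in at least 1 mutant genotype, Rps27 and Rps6 did not pass the test, and Rps24 to Rpl39 were higher in KO. Rplp0 and Rpl22 are shown because later results turn on them, and their windows hold no such run. Other genes described further on also hold none and are not printed, among them Rpl37a, Rpl10l, Rpl39l, Rpl5, Rps13, Rps15, Rps28 and Rps3a1. The windows printed therefore do not show how common such runs are. The coordinates are those of GRCm38.
Rplp0 (chr5:115559452-115559481, plus strand): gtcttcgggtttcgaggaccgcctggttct
Rplp2 (chr7:141447636-141447665, plus strand): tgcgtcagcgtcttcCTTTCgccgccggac
Rps18 (chr17:33955651-33955680, minus strand): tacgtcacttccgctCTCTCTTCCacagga
Rps26 (chr10:128626492-128626521, minus strand): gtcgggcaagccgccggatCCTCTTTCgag
Rps27rt (chr9:114982725-114982754, minus strand): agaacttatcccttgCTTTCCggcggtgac
Rps27 (chr3:90213634-90213663, minus strand): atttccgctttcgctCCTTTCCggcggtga
Rps6 (chr4:86857353-86857382, minus strand): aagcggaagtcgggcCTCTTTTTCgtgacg
Rps24 (chr14:24490663-24490692, plus strand): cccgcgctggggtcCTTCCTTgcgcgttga
Rps27l (chr9:66946071-66946100, plus strand): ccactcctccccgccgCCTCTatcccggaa
Rpl22 (chr4:152325711-152325740, plus strand): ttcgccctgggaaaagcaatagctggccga
Rpl39 (chrX:37085208-37085237, minus strand): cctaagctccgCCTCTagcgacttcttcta
Such runs stood in genes that moved in either direction. Of the 62 tested genes with an entry, a run was found in 3 of 6 that were higher in KO than in WT, 8 of 16 that were lower and 19 of 40 that did not pass the test. A match describes these letters only, and its absence says only that they are not in this window.

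RNA-seq fragments were counted by the authors over whole gene bodies, introns included, and levels below are CPM, counts relative to the scaled size of each library. The 9 libraries held 21684791 to 41513634 counts. The ribosomal protein genes took 0.718 to 0.729% of them in KO, 0.674 to 0.765% in HET and 0.804 to 0.825% in WT libraries. After a filter on low counts, 81 of the 85 genes were tested among 20782 features. The 4 others were Rpl13 and Rplp1, at 0 in every RNA-seq library, Rpl24, with at most 3 counts in a library, and Rpl3l, with at most 11. Fragments that lay in overlapping features of the same strand were not counted. The gene bodies of Rpl13, Rplp1 and Rpl24 were covered over 100%, 99.8% and 98.7% of their length by another feature, for Rplp1 a piRNA precursor annotated on the gene itself, which also stood at 0 in all 9 libraries. Their counts are therefore no measure of these genes. Rpl13a was covered over 88.6% and its low level, 4.57, 4.48 and 4.16 CPM in KO, 5.88, 4.04 and 4.02 CPM in HET and 5.67, 3.73 and 5.00 CPM in WT libraries, is uncertain for the same reason. Rpl3l, a copy of Rpl3 made in striated muscle, has no such overlap.

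Levels differed widely between the genes. Per kilobase of exon, the mean over the 9 libraries ran between 2.18 and 335 CPM, with a median of 38.6 CPM. The highest were Rpl39l, the germ cell copy of the exit tunnel protein L39, with 311 CPM per kb in KO, 312 in HET and 383 in WT testes, and Rps24, a small-subunit protein, with 323, 318 and 266 CPM per kb in KO, HET and WT testes. Rpl32, Rpl8 and Rps26 followed. Among the tested genes the lowest were Rpl13a, Rpl15, Rpl36a, Rpl17 and Rps19, between 2.18 and 9.76 CPM per kb. Because introns enter the counts, this order depends on the length used: per kilobase of gene body Rpl39l stood at rank 14 and Rps24 at rank 18, while Rpl10l stood at rank 3. Reads with several alignments were left out of the counts, and 272 pseudogenes have symbols that start like those of these genes. Genes with close copies can therefore read low, and how far this set the order was not tested.

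**Figure D1:**
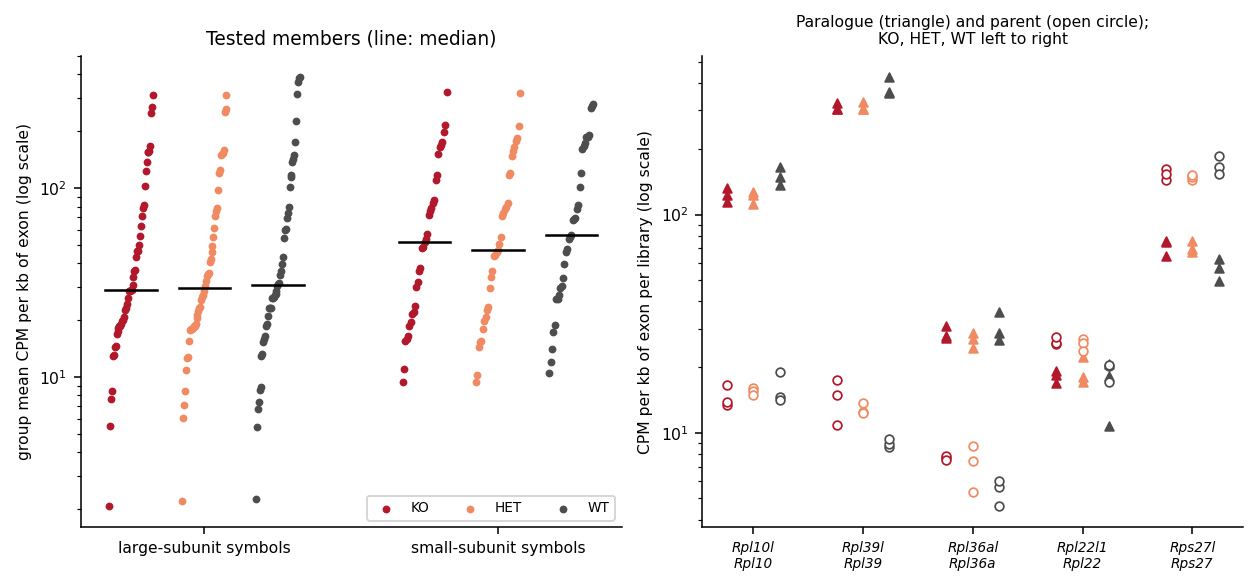
Left, mean CPM per kilobase of exon (log scale) of each tested ribosomal protein gene in KO, HET and WT testes, split into large-subunit and small-subunit symbols, with each point a gene, sorted within its group, and the median as a line. Right, the level of 5 paralogues (triangles) and their parents (open circles) in each library, where Rpl10l and Rpl39l lie far above Rpl10 and Rpl39 in all 9 libraries.

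The paralogues formed a distinct pattern. Rpl10l (chr12, minus strand, 66283379 to 66284401, a single-exon gene) was measured at 135, 125 and 117 CPM in KO, 125, 129 and 114 CPM in HET and 169, 139.5 and 151 CPM in WT libraries. Its X-linked parent Rpl10, whose protein is added late in large-subunit maturation, was measured at 27.6, 33.9 and 28.3 CPM in KO, 33.1, 31.9 and 30.4 CPM in HET and 39.00, 29.9 and 29.02 CPM in WT libraries. Rpl10l thus made up most of the pair's summed counted level per kilobase of exon in every genotype, 89.4 ± 1.33% in KO, 88.6 ± 0.408% in HET and 90.4 ± 0.807% in WT libraries (SD, n = 3 each). This share and those of other pairs rest on counted reads only. Parents or copies may have lost reads that also align to pseudogenes, and the size of such a loss was not tested. Rpl10l was lower in HET than in WT (log2 fold change -0.32 ± 0.10 (SE), adjusted p = 0.035 by edgeR's quasi-likelihood test), a call lost without WT library 1 or 3, HET library 1 or 3 or KO library 2 (adjusted p up to 0.119 over all alternatives). In KO against WT it did not pass (-0.28 ± 0.10, adjusted p = 0.0582). Rpl10 passed in neither comparison, and the other X-linked genes besides Rpl39, Rps4x at 31.9 ± 4.39, 32.5 ± 1.66 and 30.9 ± 4.03 CPM and Rpl36a at 12.7 ± 0.271, 11.8 ± 2.80 and 8.98 ± 1.20 CPM in KO, HET and WT testes (mean ± SD, n = 3), did not pass either, Rpl36a with adjusted p = 0.0529 and 0.095 by edgeR. Rps4l, a relative of Rps4x that the annotation calls a pseudogene, averaged 45.9 ± 5.64 CPM in KO, 42.8 ± 7.29 CPM in HET and 62.6 ± 15.3 CPM in WT testes, with an adjusted p of 0.0777 in KO and 0.0344 in HET against WT by edgeR.

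Rpl39l and Rpl39 moved apart. Rpl39l, which mouse spermatids need for the folding of a subset of their proteins, was measured at 253, 253 and 270.2 CPM in KO, 273, 252 and 254 CPM in HET and 354, 302 and 299 CPM in WT libraries, so that the WT libraries were all above the others. Rpl39, on the X chromosome, was measured at 15.5, 25.1 and 21.4 CPM in KO, 17.9, 17.6 and 19.7 CPM in HET and 12.3, 12.7 and 13.4 CPM in WT libraries, with WT below all others. The share of Rpl39l in the pair, per kilobase of exon, was 96.6, 94.6 and 95.6% in KO, 96.3, 96.1 and 95.7% in HET and 98.0, 97.6 and 97.5% in WT libraries. Among 10 such tests over 5 pairs, this difference gave p = 0.1 in KO and in HET against WT (two-sided exact permutation test, adjusted p = 0.167), the smallest p that 3 against 3 libraries allow. Other pairs reached the same p, so it does not set this pair apart. They were Rps27l and Rps27 in both (Rps27l share 32.0% in KO, 32.4% in HET, 25.3% in WT), Rpl36al and Rpl36a in KO (Rpl36al 78.8% against 84.7%) and Rpl10l and Rpl10 in HET. The remaining tests gave a higher p. In the fit over all features Rpl39 was higher in KO than in WT (log2 fold change 0.70 ± 0.15, edgeR adjusted p = 0.00922) and in HET than in WT (0.53 ± 0.15, adjusted p = 0.0261), and Rpl39l was lower (-0.30 ± 0.09, adjusted p = 0.0395, and -0.29 ± 0.09, adjusted p = 0.0382). The Rpl39l call in KO was lost whichever WT or KO library was left out (adjusted p up to 0.13 over all alternatives), and the call in HET without any WT or KO library or HET library 2 or 3 (up to 0.114 over all alternatives). The Rpl39 call in HET was lost without any WT library or HET library 3 (up to 0.0867). The coding sequences of both genes have 156 bases and are 85.3% identical. These sequences share no stretch of 50 bases. They are printed whole because the pair carries this opposite movement, with capitals at the 23 bases that differ (GENCODE vM21 transcripts, coding strand, chromosome 16 for Rpl39l and X for Rpl39).
Rpl39l: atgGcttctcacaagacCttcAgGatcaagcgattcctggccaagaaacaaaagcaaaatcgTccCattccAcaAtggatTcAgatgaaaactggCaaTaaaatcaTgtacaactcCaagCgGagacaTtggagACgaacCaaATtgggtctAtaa
Rpl39: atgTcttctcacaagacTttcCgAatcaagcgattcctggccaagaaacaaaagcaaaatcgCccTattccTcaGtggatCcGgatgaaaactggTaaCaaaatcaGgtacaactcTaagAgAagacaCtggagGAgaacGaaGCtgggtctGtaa

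Rps27rt is a retrogene on chromosome 9 whose coding sequence of 255 bases is identical to that of Rps27 on chromosome 3. All 206 stretches of 50 bases in it occur in both, and the authors' counting left out reads with several alignments, so the values of both genes are uncertain. Its first 156 coding bases, the same in both genes, are shown in lower case throughout because no base differs.
Rps27rt: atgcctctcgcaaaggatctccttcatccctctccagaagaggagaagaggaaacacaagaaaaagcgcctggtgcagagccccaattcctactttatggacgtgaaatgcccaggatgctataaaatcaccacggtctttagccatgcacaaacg
Rps27rt was measured at 15.97, 11.7 and 12.97 CPM in KO, 22.9, 14.1 and 12.5 CPM in HET and 50.1, 39.7 and 23.7 CPM in WT libraries. The WT libraries spread widely, and WT library 3 lay just above HET library 1. It was lower in KO (log2 fold change -1.48 ± 0.27, edgeR adjusted p = 0.00443) and in HET (-1.19 ± 0.26, adjusted p = 0.00938) than in WT. Rps27 itself, with 149.6, 169 and 159 CPM in KO, 150.3, 155 and 158 CPM in HET and 193, 173 and 159 CPM in WT libraries, did not pass (adjusted p = 0.308 and 0.17). The third relative, Rps27l, a p53 target, was higher in KO (58.6 ± 4.91 CPM) and HET (57.9 ± 3.42 CPM) than in WT (46.01 ± 5.21 CPM, mean ± SD, n = 3 each; adjusted p = 0.0333 and 0.0358).

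No ribosomal protein gene passed the test between KO and HET testes. Of the 81 genes, 0 passed an adjusted p of 0.05 in edgeR's quasi-likelihood test, 0 had an unadjusted p under 0.05 and DESeq2 also called 0. Across all tested features 0.0289% passed the adjusted threshold in this comparison, so a count of 0 among 81 is near the background. An unadjusted p under 0.05 in edgeR was found for 638 of the 20782 features. Log2 fold changes of KO over HET ran between -0.29 (Rps27rt, ± 0.27 SE) and 0.26 (Rpl21, ± 0.25 SE), with a median of 0.03 against 0.01 over all features. This median was 0.06 without HET library 1, 0.05 without HET library 2, 0.01 without KO library 2, -0.02 without HET library 3 and -0.03 when scaled by library size alone, so its sign was not stable. The libraries of KO and HET did not overlap for 1 gene of the 81, against 8.31% of all features (3.86% with KO higher and 4.45% with KO lower). A p that misses the threshold does not show equal levels: for Rplp0 the log2 fold change of KO over HET was 0.14 ± 0.12 (SE).

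Both mutant genotypes differed from WT, and these 2 comparisons share the same 3 WT libraries. In KO against WT, 10 genes were higher and 23 lower, 12.3% and 28.4% of the 81. Over all tested features 9.68% were higher and 11.1% lower. In HET against WT, 7 genes were higher and 28 lower (8.64% and 34.6%), against 11.1% higher and 12.9% lower over all features. Scaled by library size alone, HET against WT gave 10 higher and 17 lower, with the median of all features at 0.10 and that of the genes at -0.05 on the log2 scale. The median log2 fold change of the genes was -0.13 in KO and -0.16 in HET against WT, while the medians over all features were -0.01 and -0.00. Without WT library 1 the medians of the genes were -0.05 and -0.09, and scaled by library size alone the median in KO was -0.07. Large-subunit genes gave 6 higher and 12 lower of 48 in KO and 5 higher and 16 lower in HET, and small-subunit genes gave 4 higher and 11 lower of 33 in KO and 2 higher and 12 lower in HET. KO and WT libraries did not overlap for 14 genes with KO higher and 34 with KO lower, against 20.6% and 22% of all features, 42.6% in all. HET and WT libraries did not overlap for 11 genes with HET higher and 35 with HET lower, against 20.5% and 21.6% of all features, 42.1% in all. All 6 KO and HET libraries lay below all 3 WT libraries for 32 genes (39.5%) and above them for 10 (12.3%), against 16.9% and 15% of all features.

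The counts depended on single libraries. Without WT library 1, which held the highest WT value for 63 of the 81 genes, 6 genes were higher and 11 lower in KO, and 3 higher and 11 lower in HET. Without KO library 3 the counts for KO against WT were 4 higher and 5 lower, and without KO library 2 they were 3 and 9. The higher count in KO was 3 without WT library 2 and 4 without WT library 3. Without HET library 3 the counts for HET against WT were 4 higher and 11 lower, and the higher count was 3, 4, 2, 3 and 4 without HET library 1, HET library 2, WT library 2, WT library 3 and KO library 2. The share of all features called in KO against WT fell as well, to 8.55% without KO library 3, 9.00% without KO library 2 and 13.1 to 13.8% without a WT library, and in HET against WT to 11.6% without HET library 3 and 13.8% without WT library 1.

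**Figure D2:**
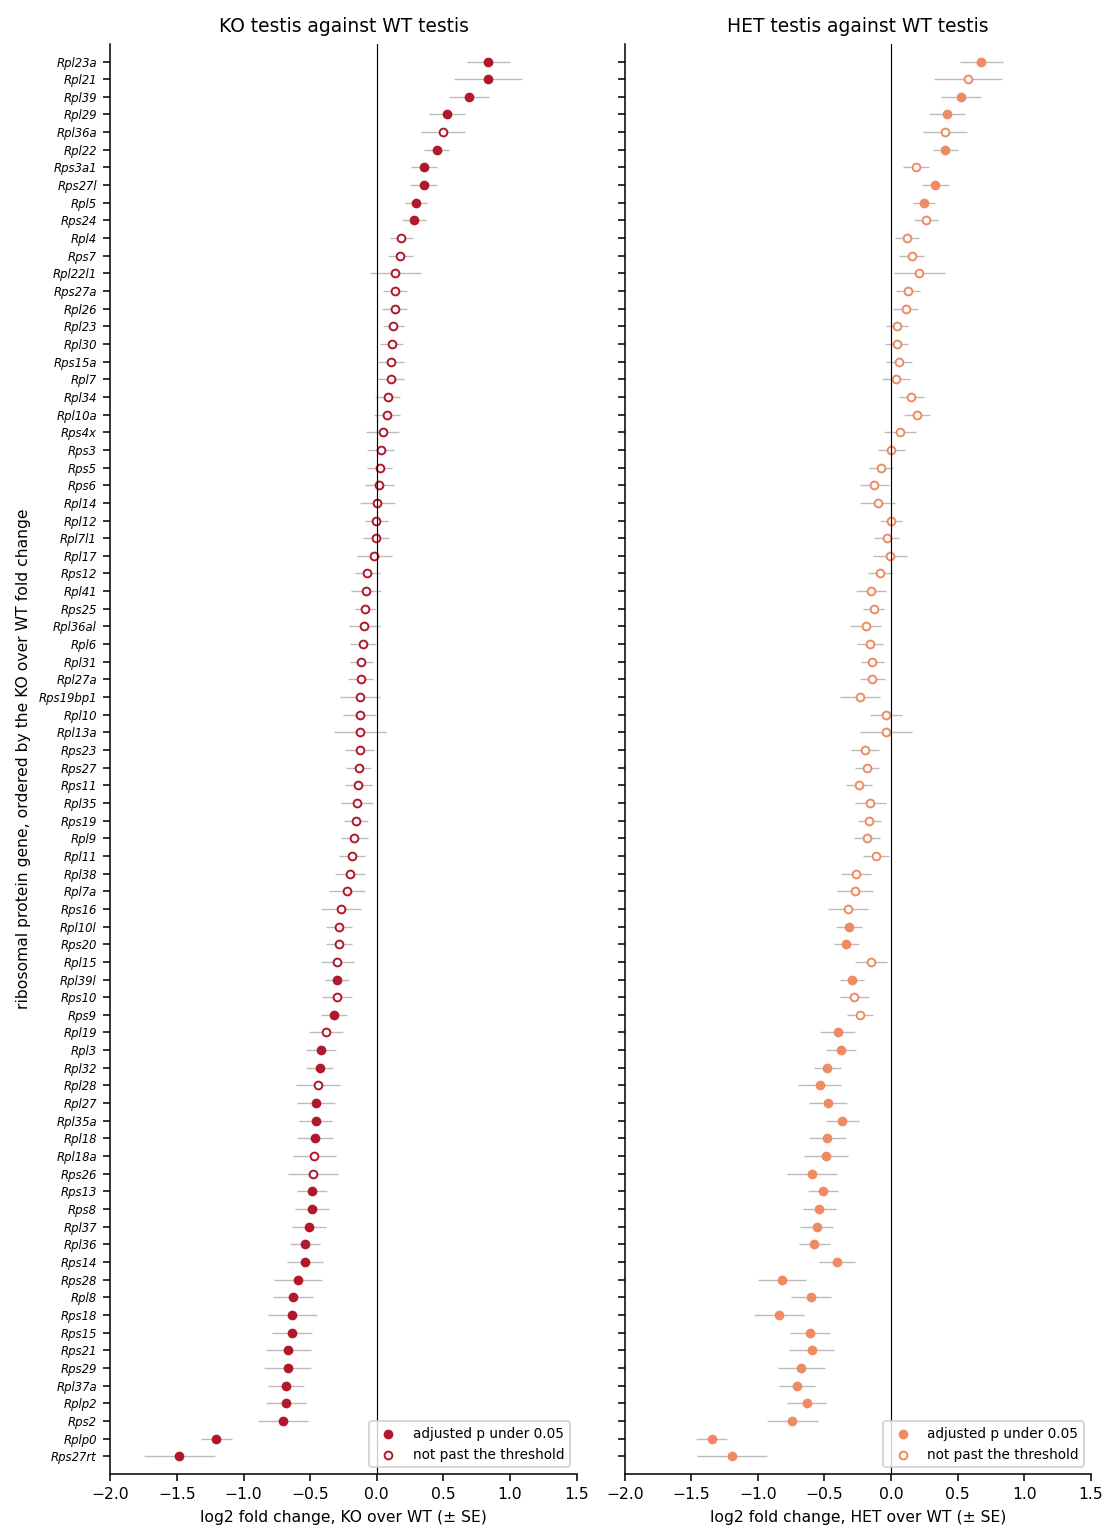
Log2 fold change of the tested ribosomal protein genes, 1 of the 81 left out, KO over WT on the left and HET over WT on the right, with bars of 1 SE; filled points passed an adjusted p of 0.05 in edgeR. Most points lie left of 0 in both panels, Rps27rt and Rplp0 lie furthest left, and Rpl23a, Rpl21 and Rpl39 furthest right; both panels share the WT libraries.

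Rplp0, the base of the ribosomal stalk, had the lowest adjusted p of all members. The stalk is the arm of the large subunit that recruits elongation factors, and it joins Rplp0 to dimers of Rplp1 and Rplp2. Rplp0 was measured at 218, 260.0 and 205 CPM in KO, 199.8, 224 and 196 CPM in HET and 593, 495 and 488 CPM in WT libraries, so that all 6 KO and HET libraries lay far below all 3 WT libraries. The log2 fold change was -1.21 ± 0.12 in KO (adjusted p = 9.07e-05) and -1.35 ± 0.12 in HET (adjusted p = 4.79e-05). Rplp2 was measured at 79.9, 67.5 and 64.2 CPM in KO, 83.1, 76.9 and 58.8 CPM in HET and 135, 107 and 97.8 CPM in WT libraries, again without overlap (-0.68 ± 0.15, adjusted p = 0.0097 in KO, and -0.63 ± 0.15, adjusted p = 0.0121 in HET). Rplp1 could not be read from RNA-seq, as given above.

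Rpl37a, a zinc-binding large-subunit protein, was measured at 94.5, 86.7 and 85.6 CPM in KO, 92.8, 95.4 and 73.7 CPM in HET and 174, 129.5 and 124 CPM in WT libraries. It was lower in KO (-0.68 ± 0.14, adjusted p = 0.00693) and HET (-0.71 ± 0.14, adjusted p = 0.00561). Among the other large-subunit genes that fell in both were Rpl36, Rpl32, Rpl8, whose protein sits at the peptidyl transferase centre, and Rpl3. Rpl36 averaged 62.8 ± 6.93 CPM in KO, 61.2 ± 9.01 CPM in HET and 91.3 ± 2.45 CPM in WT testes (SD, n = 3 each; adjusted p = 0.00891 and 0.00654). Rpl32 averaged 260.4 ± 3.75, 252 ± 19.7 and 351 ± 39.9 CPM in KO, HET and WT testes (adjusted p = 0.0126 and 0.00775). Rpl8 averaged 216 ± 26.3, 219.6 ± 34.2 and 333 ± 63.5 CPM (adjusted p = 0.0144 and 0.0161). For Rpl3 the means were 54.4 ± 2.61, 55.9 ± 5.69 and 72.6 ± 10.7 CPM (adjusted p = 0.0247 and 0.0328). The KO call of Rpl32 was lost without KO library 3 (adjusted p = 0.0517). The Rpl8 call was lost in KO without KO library 2 or 3 and in HET without WT library 1 or HET library 3 (up to 0.0773 over the alternatives). The Rpl3 call was lost in KO without WT library 1 or any KO library and in HET without WT library 1, HET library 2 or 3 or KO library 3 (up to 0.125 over the alternatives).

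**Figure D3:**
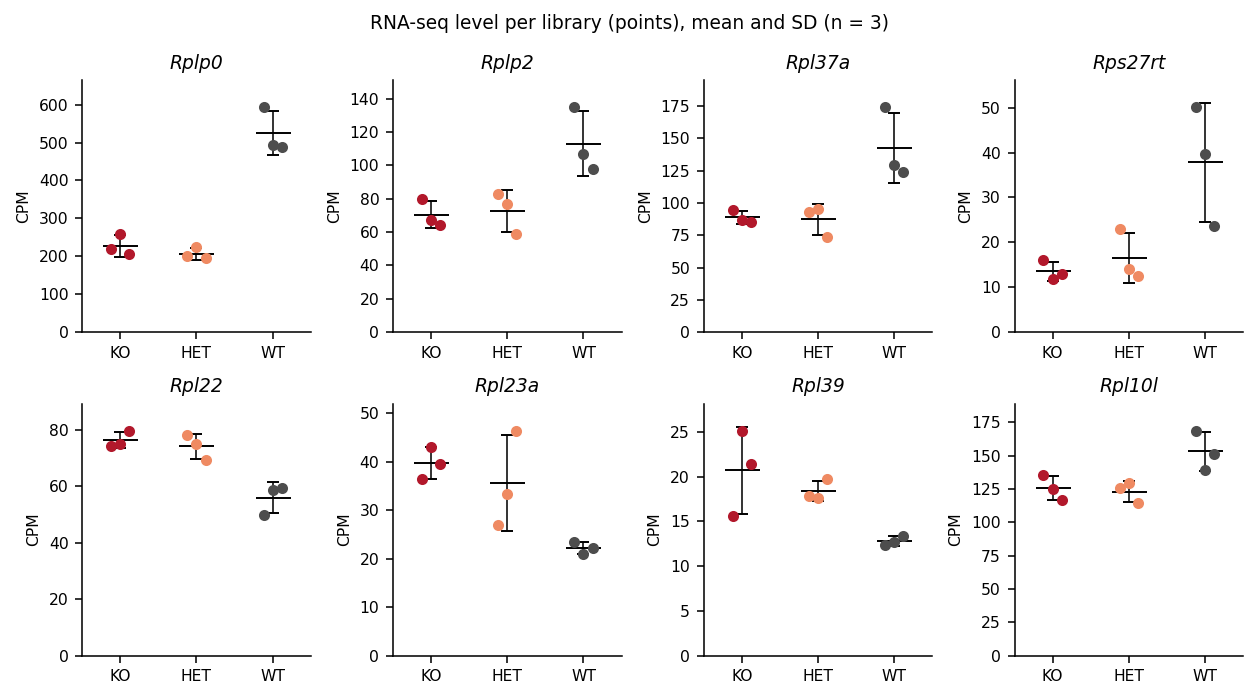
RNA-seq level in CPM of 8 ribosomal protein genes in each KO, HET and WT library (points), with the mean and SD of 3 libraries. KO and HET libraries lie below WT for Rplp0, Rplp2, Rpl37a, Rps27rt and Rpl10l, and above WT for Rpl22, Rpl23a and Rpl39.

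Small-subunit genes gave 11 and 12 of the lower calls. Rps18, in the head, was measured at 33.1, 56.9 and 34.1 CPM in KO, 41.5, 36.7 and 29.4 CPM in HET and 67.4, 63.5 and 61.6 CPM in WT libraries (-0.63 ± 0.19, adjusted p = 0.0328 in KO, and -0.84 ± 0.19, adjusted p = 0.00986 in HET). KO library 2 lay above the other KO libraries, and no KO or HET library reached the WT libraries. The Rps18 call in KO was lost without any WT library or KO library 1 or 3, when scaled by library size alone and with the GC trend described further on removed (adjusted p up to 0.125). Rps15, also in the head, averaged 110.3 ± 10.6, 112 ± 20.6 and 172 ± 29.6 CPM in KO, HET and WT testes (adjusted p = 0.0129 and 0.0143). Rps28, next to the mRNA exit, was measured at 72.8, 90.2 and 72.99 CPM in KO, 64.3, 74.02 and 63.9 CPM in HET and 162, 101 and 92.5 CPM in WT libraries, where WT library 1 lay far above the other WT libraries. It was lower in KO (-0.60 ± 0.18, adjusted p = 0.0363) and HET (-0.82 ± 0.18, adjusted p = 0.00953), and the call in KO was lost without WT library 1 or any KO library and with the GC trend removed (adjusted p up to 0.197). Rps13 averaged 64.1 ± 3.47, 63.1 ± 7.52 and 89.9 ± 12.1 CPM (adjusted p = 0.0134 and 0.0102). Rps26, measured at 95.9, 85.6 and 86.2 CPM in KO, 89.4, 83.9 and 73.4 CPM in HET and 174, 101 and 96.97 CPM in WT libraries, passed in HET (adjusted p = 0.0366) but not in KO (adjusted p = 0.0865). Rps20 did likewise, with 233 ± 13.3, 225 ± 18.7 and 284 ± 19.5 CPM in KO, HET and WT testes (adjusted p = 0.052 and 0.0261). Neither passed in KO against HET. The Rps15 call was lost in KO without KO library 2 or 3 and in HET without WT library 1 or HET library 3 (adjusted p up to 0.243 over the alternatives), and the Rps13 call in KO without KO library 2 or 3 (up to 0.0606). In HET the Rps26 call was lost without WT library 1, HET library 2 or 3 or KO library 2 or 3 (up to 0.128 over the alternatives), and the Rps20 call without WT library 1 or 2 or HET library 1 or 3 (up to 0.0759 over the alternatives).

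Of the genes on chromosome 18, which carries the mutated piRNA locus, Rps14 was lower and Rpl17 did not pass. Rps14 was measured at 162, 145 and 151 CPM in KO, 197, 178 and 126 CPM in HET and 231, 215 and 221 CPM in WT libraries (-0.54 ± 0.14, adjusted p = 0.0171 in KO, and -0.41 ± 0.14, adjusted p = 0.0458 in HET). Rpl17 averaged 6.52 ± 0.215, 6.56 ± 0.858 and 6.61 ± 0.168 CPM in KO, HET and WT testes. The Rps14 call in KO was lost without KO library 2 or 3, and in HET without any WT or KO library or HET library 2 or 3. Its adjusted p was highest with the GC trend removed, 0.0773 in KO and 0.295 in HET.

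Fewer genes were higher in the mutants. Rpl23a, at the exit of the nascent chain tunnel, was measured at 36.4, 43.04 and 39.5 CPM in KO, 26.9, 33.4 and 46.4 CPM in HET and 23.4, 20.98 and 22.1 CPM in WT libraries (0.84 ± 0.16, adjusted p = 0.00608 in KO, and 0.68 ± 0.16, adjusted p = 0.0129 in HET). The HET libraries spread most and still lay above WT. Rpl22, an RNA-binding protein that cells can do without, was measured at 74.4, 74.9 and 79.7 CPM in KO, 78.2, 74.8 and 69.3 CPM in HET and 49.7, 58.7 and 59.4 CPM in WT libraries (0.45 ± 0.09, adjusted p = 0.00818, and 0.41 ± 0.09, adjusted p = 0.0112). Its paralogue Rpl22l1 was measured at 33.7, 36.6 and 38.1 CPM in KO, 44.2, 34.1 and 35.8 CPM in HET and 21.3, 36.3 and 41.3 CPM in WT libraries and did not pass. Rpl21 was measured at 46.3, 42.8 and 44.6 CPM in KO, 46.97, 45.7 and 19.04 CPM in HET and 29.5, 22.8 and 22.6 CPM in WT libraries. HET library 3 lay below WT for Rpl21, which passed in KO (adjusted p = 0.0382) but not in HET (adjusted p = 0.118), and the KO call was lost without any one KO or WT library, in DESeq2 (adjusted p = 0.0589) and with the GC trend removed.

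Rpl5, which with Rpl11 and 5S ribosomal RNA forms a particle that restrains the p53 regulator Mdm2, was measured at 71.1, 73.8 and 75.3 CPM in KO, 73.4, 69.9 and 69.9 CPM in HET and 61.7, 55.2 and 62.8 CPM in WT libraries. It was higher in KO (adjusted p = 0.0275) and HET (adjusted p = 0.0476), whereas Rpl11, with 82.6 ± 4.04, 86.8 ± 10.98 and 93.9 ± 2.69 CPM in KO, HET and WT testes, did not pass. Rpl29 averaged 21.5 ± 1.93, 19.97 ± 1.72 and 14.9 ± 2.82 CPM (adjusted p = 0.0192 and 0.0411). Rps24 and Rps3a1 passed in KO (adjusted p = 0.0452 and 0.0259) and not in HET (adjusted p = 0.0528 and 0.186). The calls of Rpl5, Rpl29, Rps24, Rps27l and Rps3a1 in KO were each lost when WT library 2 was left out and when KO library 2 was left out. The further libraries whose omission ended the KO call were WT library 3 and KO library 3 for Rpl5 and Rps3a1, WT library 3 for Rpl29, WT library 1 and KO library 3 for Rps27l, and all other WT and KO libraries for Rps24. In HET the Rpl5 call was lost without any one of the 9 libraries, that of Rpl29 without WT library 2 or 3, any HET library or KO library 1 or 2, and that of Rps27l without WT library 1 or 2 or HET library 1 or 3. The highest adjusted p in HET over all alternatives was 0.856 for Rpl5, 0.141 for Rpl29 and 0.288 for Rps27l. For Rpl5 and Rps27l it came with the GC trend removed. Over all alternatives the adjusted p in KO reached 0.495 for Rpl5, 0.0797 for Rpl29, 0.181 for Rps24, 0.175 for Rps27l and 0.115 for Rps3a1. Rps6, the protein phosphorylated by the S6 kinases, averaged 76.2 ± 3.92, 69.01 ± 4.96 and 75.2 ± 11.05 CPM in KO, HET and WT testes and did not pass, nor did Rps19bp1, Rpl7, Rpl7l1 or Rpl36al.

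The base composition of transcripts moved with these differences. The GC content of the longest coding transcript had a median of 48.9% for genes higher in KO than in WT and 52.9% for genes lower, and of 49.2% and 52.9% in HET against WT. Across the 81 genes, which share libraries and are not independent, Spearman's rho between log2 fold change and GC content was -0.32 in KO against WT, -0.33 in HET against WT and -0.00 in KO against HET. Over all tested features, levels at high GC (59.7%) relative to low GC (39.4%) deviated from the mean of the libraries by -0.02, -0.24 and -0.35 in KO, -0.09, -0.02 and -0.60 in HET and 0.68, 0.31 and 0.33 in WT libraries, on the log2 scale. With this trend removed from each library, a step chosen after the data were seen, 8 genes were higher and 13 lower in KO, and 8 higher and 15 lower in HET, with 11.9% and 13.5% of all features called. Rplp0 kept log2 fold changes of -1.07 and -1.20 in KO and HET against WT, Rpl37a -0.76 and -0.80, Rplp2 -0.48 and -0.42, Rps27rt -1.60 and -1.32, Rpl22 0.44 and 0.40, Rpl23a 0.84 and 0.67, Rpl39 0.67 and 0.49, and all of them passed. Rps14, Rps15, Rpl8, Rpl36, Rpl3, Rpl5 and Rps27l no longer passed in either comparison. The KO calls of Rps18, Rps28, Rps24 and Rpl21 were also lost (adjusted p = 0.116, 0.197, 0.134 and 0.0644, in that order), as was the HET call of Rpl10l (adjusted p = 0.0711). The median log2 fold change of the 81 genes was then -0.05 in KO and -0.10 in HET against WT. What gives rise to the trend was not tested.

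**Figure D4:**
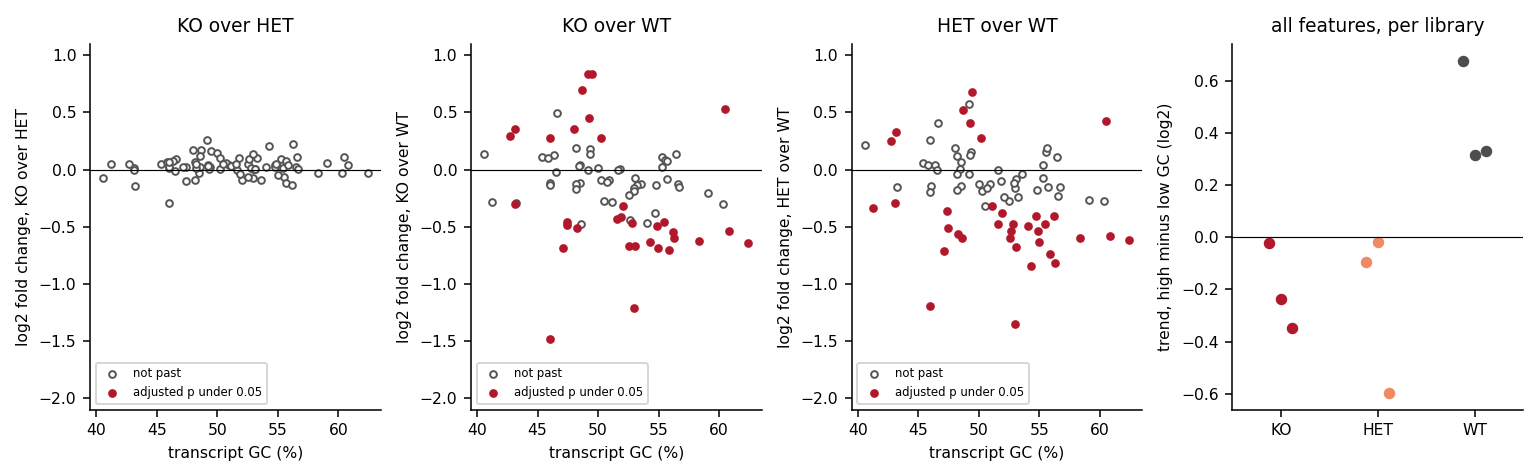
The first 3 panels plot the log2 fold change of each tested ribosomal protein gene (KO over HET, KO over WT, HET over WT) against the GC content of its transcript in percent, with genes past an adjusted p of 0.05 filled. The last panel gives, for each library, the log2 difference between high-GC and low-GC features, which is above 0 in the 3 WT libraries and below 0 in the 6 others.

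Of the genes named, 6 passed in KO and in HET against WT under each of the 18 alternatives run, which changed scaling, filter, test, strand, the groups fitted and the GC trend or left out 1 library. They were Rplp0, Rplp2, Rpl37a, Rps27rt, Rpl22 and Rpl23a. Rpl39 did so in KO, and Rps13, Rps18, Rps28 and Rpl32 in HET. No alternative changed the leaving out of reads with several alignments, so the values of Rps27rt stay uncertain as stated above. Apart from single libraries and the GC trend, some of the other settings ended calls too. Scaled by library size alone, Rpl39l, Rps18 and Rps24 no longer passed in KO, nor did Rpl39l, Rpl10l, Rpl3, Rps14, Rps20 and Rps26 in HET. With only the compared groups in the fit, Rpl39l, Rpl10l, Rpl3, Rps14, Rps20, Rps26, Rpl5, Rpl29 and Rps27l no longer passed in HET. With no filter on low counts, Rpl5 and Rps24 were lost in KO and Rpl5 and Rpl39l in HET, and with both strands summed Rps14 was lost in HET. Calls were gained as well: in DESeq2 Rpl10l, Rps20 and Rpl36a passed in KO and Rps24 in HET, with only the compared groups Rps20 and Rpl36a in KO, with no filter Rps26 and Rpl36a in KO and Rpl21 in HET, and by library size alone Rps24 and Rps3a1 in HET. With the GC trend removed Rps20, Rpl15 and Rpl30 passed in KO and Rpl30 in HET. Gains not named here came with RLE scaling (1), a mean of at least 1 CPM (3) and both strands summed (2). Leaving out some single libraries also gained calls. Over the 18 alternatives the log2 fold change of Rplp0 lay between -1.31 and -1.07 in KO and between -1.41 and -1.20 in HET.

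Among other genes of the translation machinery, calls against WT went in both directions, and their shares are set beside those over all tested features, 9.68% higher and 11.1% lower in KO and 11.1% higher and 12.9% lower in HET. Of the ribosomal genes with other symbols, Fau, encoding a ubiquitin-like protein fused to S30, was lower (72.8 ± 4.79 CPM in KO, 72.2 ± 9.32 CPM in HET and 94.4 ± 8.91 CPM in WT testes, SD, n = 3 each; edgeR adjusted p = 0.0325 and 0.0255), whereas Rpsa and the scaffold protein Rack1 did not pass. Of 75 tested mitochondrial ribosomal protein genes, 6 were higher (8.00%) and 19 lower (25.3%) in KO and 4 higher (5.33%) and 19 lower (25.3%) in HET against WT, and the median log2 fold changes were -0.11 and -0.16. Of 61 ribosome biogenesis genes, 10 were higher (16.4%) and 4 lower (6.56%) in KO and 7 higher and 7 lower (11.5% each) in HET, the last near the shares over all features. Mphosph10, of the machinery that processes small-subunit RNA, had log2 fold changes of 0.71 and 0.56 in KO and HET against WT (adjusted p = 0.00251 and 0.0071), and Rrp9, a component of the U3 particle, -0.74 and -0.77 (adjusted p = 0.00931 and 0.00731). Of 41 initiation factor genes, 5 were higher (12.2%) and 6 lower (14.6%) in KO, near the shares over all features, and 4 higher (9.76%) and 12 lower (29.3%) in HET. Of 14 elongation and termination genes, 3 were higher and 4 lower in KO and 1 higher and 6 lower in HET, with Eef1g and Eef1d, subunits of the exchange factor of eEF1A, at -0.79 and -0.76 in KO (adjusted p = 0.00333 and 0.00512) and -0.80 and -0.81 in HET (adjusted p = 0.00329 and 0.00382). Of the genes called higher in that list, Eif5a2 stood at 0.37 in KO and 0.28 in HET (edgeR adjusted p = 0.013 and 0.0388). Abce1 stood at 0.45 in KO (edgeR adjusted p = 0.00574). Of 21 genes of mTOR and TOP mRNA control, 5 were higher and 3 lower in KO and 4 higher and 6 lower in HET. Among them Rps6ka1, a kinase of the RSK family, was lower at -0.89 in KO and -1.02 in HET (adjusted p = 0.00136 and 0.000649). Rps6ka3, of the same family, was higher at 0.51 in KO and 0.60 in HET (edgeR adjusted p = 0.00643 and 0.0033). Rictor was also higher, at 0.39 in KO and 0.45 in HET (edgeR adjusted p = 0.01115 and 0.00602). Larp1, which binds TOP tracts, was lower at -0.44 in KO (adjusted p = 0.00443) and -0.36 in HET (adjusted p = 0.00958) against WT.

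Calls among marker genes of testis cell types in the same comparisons were many in some lists and near or below the shares over all tested features (9.68% higher and 11.1% lower in KO, 11.1% and 12.9% in HET) in others. Of 25 early meiotic genes, 14 (56.0%) were higher in KO and 14 higher and 2 lower in HET than in WT, with summed levels of 4350 to 4626 CPM in KO, 3929 to 4711 CPM in HET and 3441 to 3553 CPM in WT libraries. Of 29 elongating spermatid genes, 13 (44.8%) were lower in KO and 19 (65.5%) in HET, with summed levels of 15533 to 18896 CPM in KO, 10387 to 20865 CPM in HET and 25354 to 26132 CPM in WT libraries. Of 18 Leydig cell genes, 2 were higher and 10 lower (55.6%) in KO and 2 higher and 11 lower (61.1%) in HET, and their summed level was 771 to 989.9 CPM in KO, 831 to 1016 CPM in HET and 1561 to 1699.6 CPM in WT libraries. Summed macrophage markers lay at 332 to 369 CPM in KO, 338 to 398 CPM in HET and 405 to 434 CPM in WT libraries, with 1 higher and 4 lower of 18 in each. Of 27 round spermatid genes 1 was higher and 5 lower in KO and 1 higher and 6 lower in HET, with 18.5% and 22.2% lower, and of 24 pachytene and secondary spermatocyte genes 1 was higher and 3 lower (12.5%) in KO and 0 higher and 5 lower (20.8%) in HET. Sertoli markers gave 5 higher and 2 lower of 22 in KO and 7 and 2 in HET, and spermatogonial markers 3 and 3 of 19 in KO (15.8% each) and 3 and 2 in HET. Peritubular myoid markers gave 1 higher and 3 lower of 13 in KO and 1 and 2 in HET, endothelial markers 0 of 15 in both, and red blood cell markers 1 lower of 5 in both. Summed peritubular myoid markers lay at 433 to 487 CPM in KO, 470 to 503 CPM in HET and 525 to 539 CPM in WT. Summed round spermatid genes lay at 4324 to 4635, 3897 to 4623 and 4773 to 5319 CPM in KO, HET and WT. For pachytene and secondary spermatocyte genes the sums were 9526 to 9838, 9062 to 9544 and 10124 to 10392 CPM. Summed Sertoli, spermatogonial, endothelial and red blood cell markers overlapped with WT in KO, HET or both. Of the markers in these lists, the spermatid gene Cabs1, the Leydig gene Insl3 and the leukocyte gene Itgam stood at 0 in all 9 libraries. Such a 0 need not mean absence, because fragments in overlapping features were not counted, and overlaps of these markers were not examined. The Leydig gene Star averaged 55.2 ± 19.3 CPM in KO, 45.2 ± 18.4 CPM in HET and 132 ± 18.0 CPM in WT testes (SD, n = 3 each; edgeR adjusted p = 0.0145 and 0.00617). The 2 Leydig genes called higher went the other way. Srd5a1 had log2 fold changes of 0.87 in KO and 0.84 in HET (edgeR adjusted p = 0.00379 and 0.00424). For Akr1c14 they were 0.98 and 0.85 (edgeR adjusted p = 0.00662 and 0.0109). The part of these differences in the levels of the ribosomal protein genes was not tested.

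Small RNA reads from ribosomal protein genes were few. Counted by the authors on the sense strand over exons, they came to 937 to 1250 reads in KO and 592 to 2607 reads in HET libraries, which made up 0.0735 to 0.0879% of all counted reads in KO and 0.0598 to 0.14% in HET libraries, and 14 of the 85 genes passed the filter among 3581 genes. Of these, 0 passed an adjusted p of 0.05 in KO against HET in edgeR, where 0.0279% of all genes tested passed, and DESeq2 called 0. An unadjusted p under 0.05 in edgeR was found for 1 of the 14 and for 312 of the 3581 genes tested, so this count is near the background. The median log2 fold change of the 14 was -0.14 and that of all genes -0.01. Single libraries moved the median of the 14 to -0.34 (without HET library 1), -0.27 and -0.23 (without KO library 1 and KO library 2), -0.07 (without KO library 3) and -0.04 (without HET library 2), and it was -0.21 when scaled by library size alone and -0.22 in DESeq2.

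Rplp1, which has its own annotated piRNA precursor, had the lowest p. It was measured at 27.9, 19.5 and 23.2 CPM in KO and 29.7, 61.9 and 62.4 CPM in HET libraries, where KO lay below HET and HET library 1 lay close to KO. It was the only gene of the 14 without overlap, against 15.9% of all genes tested (8.41% with KO higher and 7.51% with KO lower). Its log2 fold change was -1.09 ± 0.32 (SE), with an unadjusted p of 0.00779 and an adjusted p of 0.557 by edgeR. Without HET library 1 it was -1.38 with an adjusted p of 3.94e-05, in a fit that called 16.1% of all genes.

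Rpl7a, whose gene body holds 3 small nucleolar RNA genes, had the most reads, 488, 421 and 622 CPM in KO and 1194, 109 and 129.6 CPM in HET libraries. It made up 57.4, 53.1 and 65.2% of the reads of all ribosomal protein genes in KO and 77.2, 18.1 and 22.7% in HET libraries. HET library 1 was above all KO libraries and HET libraries 2 and 3 were below them, and the share of all counts in small nucleolar RNA genes was likewise highest in HET library 1 and lowest in HET libraries 2 and 3, at 2.76, 2.96 and 3.50% in KO and 5.29, 0.698 and 0.846% in HET libraries. Its part in the Rpl7a reads was not tested. Rpl7a did not pass (adjusted p = 0.976), and without HET library 1 its log2 fold change was 2.09 with an adjusted p of 1.45e-11. That fit called 16.1% of all genes tested. Rps15 varied little between libraries, at 61.9, 59.2 and 56.00 CPM in KO and 64.7, 60.9 and 57.4 CPM in HET libraries. Rpl30, Rps3 and Rps20 followed, with 30.6, 48.2 and 41.5 CPM for Rpl30 in KO and 32.04, 56.8 and 36.9 CPM in HET, 40.2, 28.8 and 34.8 CPM for Rps3 in KO and 26.1, 50.7 and 40.2 CPM in HET, and 18.4, 16.1 and 12.6 CPM for Rps20 in KO and 14.2, 20.3 and 18.05 CPM in HET libraries. Rplp2 and Rpl39l, described above for RNA-seq, reached at most 14.8 and 18.0 CPM of small RNA in a library.

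**Figure D5:**
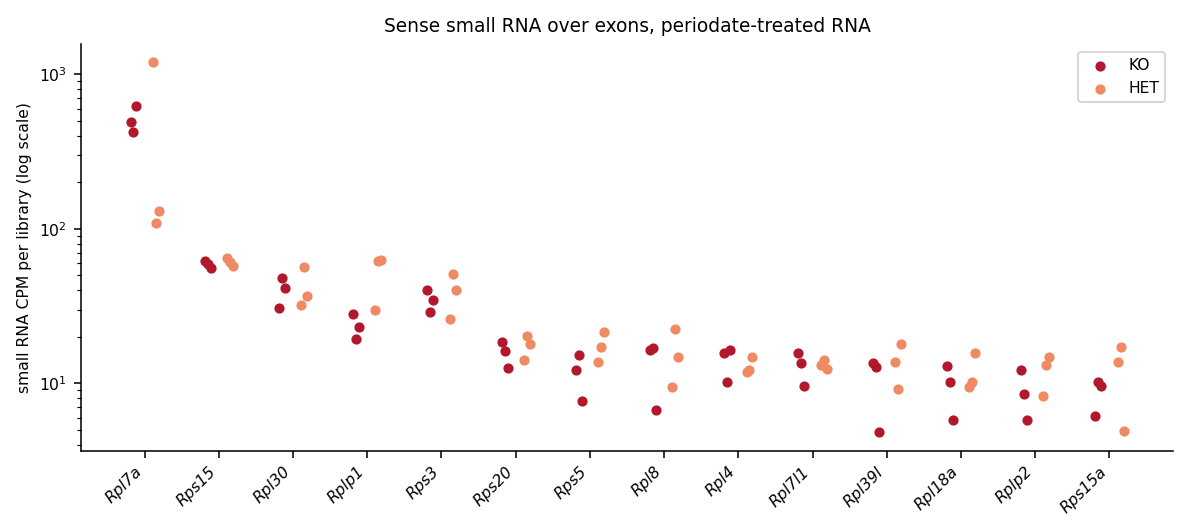
Small RNA level in CPM (log scale) of the 14 ribosomal protein genes that passed the filter, in each KO and HET library of periodate-treated RNA. Rplp1 is the gene whose KO points all lie below its HET points, and the HET points of Rpl7a lie on both sides of the KO points.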

How the data were processed

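The RNA-seq values are raw counts deposited by the authors, per the file headers made with featureCounts on the reverse strand over whole gene bodies (introns included) of GENCODE M12 plus 466 piRNA precursors. Reads with several alignments, and fragments in features that overlap on the same strand, were not counted. The small RNA values are raw counts deposited by the authors over exons on the sense strand. The submitters' processing notes name featureCounts 1.6.2, HISAT2 2.1.0, cutadapt 1.18, SAMtools 1.9 and Bowtie2 2.2.5, and the build mm10 (GRCm38).

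Counts were scaled by TMM, filtered by edgeR's filterByExpr and tested by edgeR's quasi-likelihood test (edgeR 4.0.16, R 4.3.3) over all features, in 1 fit of the 9 RNA-seq libraries and 1 of the 6 small RNA libraries, with Benjamini-Hochberg adjustment and a threshold of 0.05. The RNA-seq libraries held 21684791 to 41513634 counts and the small RNA libraries 939641 to 1861402. DESeq2 1.42.0 was the alternative tool. No pair of replicates agreed within sampling noise (chi-square per degree of freedom of at least 2.11). The code was tested on simulated data.

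Members and lists were chosen with earlier results of these data known. Named, most of them with values, are the paralogue pairs, the stalk, 5S particle and chromosome 18 genes, Rps6 and Rps19bp1, the 8 called genes of lowest adjusted p in each direction, the 5 highest and 5 lowest levels, and the 6 genes with most small RNA. RNA-seq library numbers follow deposition order and pair no samples. Start sites come from the RefSeq promoter table and coding sequences from GENCODE vM21. Some genes are not reported here by name.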

Additional observations from a re-analysis of the deposited data

How the results depend on the processing

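No ribosomal protein gene was called between KO and HET RNA-seq under any alternative run. The direction of every named gene that passed was kept under every alternative. Against WT, the counts moved most with the libraries. Leaving out 1 library at a time gave 9 to 37 called genes in KO against WT (3 to 11 higher, 5 to 26 lower) and 14 to 28 in HET against WT (2 to 5 higher, 11 to 24 lower). The lowest counts came without KO library 3 and without WT library 1. Over the same fits 8.55 to 22.5% of all features were called in KO against WT and 11.6 to 22.4% in HET against WT. With only the compared groups in the fit, HET against WT gave 18 calls (3 higher, 15 lower), and with library size alone as scaling it gave 17 lower. For these settings no share of all features is given, so the counts describe the fits only. With the GC trend removed, chosen after the data were seen, KO against WT gave 21 calls (13 lower) and HET against WT 23 (15 lower). The shares of all features called with the trend removed are given above with the GC results. The cause of these shifts was not tested.

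In small RNA, leaving out 1 library gave 0 to 2 called genes (0 to 1 higher and 0 to 1 lower), the 2 coming without HET library 1. That fit called 16.1% of all genes tested, so the 2 calls do not set these genes apart. The replicate block gave 0 called genes and a median log2 fold change of -0.14. Same-numbered small RNA libraries did not deviate together (r of -0.15, 0.00 and -0.08). With deviations taken from means of 3 libraries, these values cannot decide whether the numbers pair the libraries, and the labels do not say. No paired analysis was possible for RNA-seq because its labels share no replicate number between groups. With 3 libraries a group, small differences can be missed.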
